A study of Homo sapiens with 18 samples.

Results

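The heat shock proteins and chaperonins were described through 42 genes taken by name from a list of cytosolic HSP70, HSP90 and HSP40 proteins, mitochondrial chaperones, the 8 subunits of the CCT ring and their regulators. Of these 42 genes, 40 had a probe named for them on the array, and 39 were tested because a probe was detected on at least 3 arrays, out of 11130 genes tested in all. AHSA1 and HSF2 had no probe under their names, and the probe of HSPA1A was detected on none of the 18 arrays. A probe counted as detected at a detection p under 0.01, and 35 of the 39 tested genes were detected on all arrays. The other 4 were BAG1, DNAJB4, HSPA2 and HSPA6, detected on between 3 and 13 arrays.

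The study used 2 human cell lines, Jurkat, a T lymphocyte line, and THP1, a monocyte line, each left untreated or exposed to graphene oxide (GO) or to graphene oxide carrying amino groups (GONH2). Both materials were given at 50 µg/ml for 24 h, and each of the 6 groups held 3 Illumina HumanHT-12 v4 arrays. The amino groups had been attached by opening the epoxide rings of GO with a triethyleneglycol diamine. Each line is a single tumour-derived culture, and the titles of the arrays number the replicates of a group. The study states biological and technical triplicates for all its experiments, and the titles do not say which kind these arrays are.

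The labels were checked against the data before any comparison. The means that the study lists for GO-treated monocytes equalled the arrays labelled GONH2 for 100% of the 1996 probes checked, within 0.005 on the log2 scale, and the arrays labelled GO for 0%. The lists of GO means were held only in part here, and the other probes were not checked. The THP1 groups are therefore called labelled GO and labelled GONH2 throughout, and a direction drawn from either holds for the label only. For Jurkat the listed GO means equalled the arrays labelled GO for 100% of the 1996 probes checked. In the THP1 list for GONH2 the control means equalled the controls for 100% of 977 probes, and the GONH2 means equalled each treated group for 0.512%. In the Jurkat list for GONH2 even the control means equalled the controls for only 0.258% of 1163 probes, so that list could not check the label. The controls labelled Jurkat carried 12 of 14 measured myeloid markers on all 3 arrays, among them ELANE at 13.63 ± 0.04 and CEBPA at 12.32 ± 0.09 (log2 intensity), and 5 of 14 T-cell markers. CD3E, CD3G, CD5, CD28 and ZAP70 were detected on none of them, and CD3D, CD247, LAT, BCL11B and LEF1 on all 3. The controls labelled THP1 carried 13 of the 14 myeloid markers and 1 T-cell marker, LAT. Jurkat and THP1 are therefore used below only as the names on the labels, for values within a line as well as for differences between the lines. Between 15761 and 17809 probes were detected per array and the lowest correlation between arrays of any group was 0.987.

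Chaperones bind unfolded or newly made proteins and keep them from aggregating while they fold. HSP70 proteins work in cycles of ATP binding and release in which J-domain proteins (HSP40) deliver the substrate and exchange factors such as HSP110 and BAG proteins release it. HSP90 takes over partly folded kinases and receptors. HSP60 with its cap HSP10 folds proteins inside mitochondria, and the CCT ring, fed by prefoldin, folds actin and tubulin in the cytosol. After heat or other protein damage the transcription factor HSF1 binds heat shock elements, inverted repeats of GAA, and switches on many of these genes. Dividing cells such as leukaemia lines use the constitutive forms for everyday protein synthesis.

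The promoter sequences below are shown for the genes around which the results turn: HSPB1, the member with the highest rise in both lines, the HSP90 pair, and HSPD1 with HSPE1, which lie head to head. They were taken from RefSeq on GRCh38.p14, from 250 bases before to 50 bases after a transcript start, and are written 5′ to 3′ along the gene. Windows were found for 39 of the 42 listed genes. Capitals mark each match of GAANNTTC, a pair of GAA repeats, extended where it formed the longer heat shock element GAANNTTCNNGAA on either strand.
HSPB1, chr7:76302423-76302722, plus strand: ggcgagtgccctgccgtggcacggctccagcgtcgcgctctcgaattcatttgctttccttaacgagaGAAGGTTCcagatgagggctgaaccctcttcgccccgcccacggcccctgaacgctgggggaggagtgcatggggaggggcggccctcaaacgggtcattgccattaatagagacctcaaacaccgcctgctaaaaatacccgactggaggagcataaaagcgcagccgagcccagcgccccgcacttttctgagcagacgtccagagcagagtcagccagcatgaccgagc
HSP90AA1, chr14:102086995-102087294, minus strand: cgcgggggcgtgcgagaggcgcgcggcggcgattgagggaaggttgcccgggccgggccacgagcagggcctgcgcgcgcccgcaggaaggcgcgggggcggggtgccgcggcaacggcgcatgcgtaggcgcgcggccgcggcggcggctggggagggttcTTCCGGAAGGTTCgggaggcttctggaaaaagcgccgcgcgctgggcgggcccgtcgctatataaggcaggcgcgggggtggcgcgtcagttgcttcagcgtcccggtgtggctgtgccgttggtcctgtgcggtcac
HSP90AB1, chr6:44247693-44247992, plus strand: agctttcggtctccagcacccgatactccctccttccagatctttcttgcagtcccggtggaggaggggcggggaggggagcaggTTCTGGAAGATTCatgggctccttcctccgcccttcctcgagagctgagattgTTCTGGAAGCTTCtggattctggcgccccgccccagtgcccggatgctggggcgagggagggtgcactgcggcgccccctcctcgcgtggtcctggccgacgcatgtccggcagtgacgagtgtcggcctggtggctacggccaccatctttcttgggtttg
HSPD1, chr2:197499791-197500090, minus strand: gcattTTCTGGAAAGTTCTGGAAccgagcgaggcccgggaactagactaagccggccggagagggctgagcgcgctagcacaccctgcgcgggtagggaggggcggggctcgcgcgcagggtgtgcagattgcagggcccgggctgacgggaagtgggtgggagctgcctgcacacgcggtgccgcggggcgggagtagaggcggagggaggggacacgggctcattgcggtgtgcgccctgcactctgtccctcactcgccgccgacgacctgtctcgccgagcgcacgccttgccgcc
HSPE1, chr2:197500129-197500428, plus strand: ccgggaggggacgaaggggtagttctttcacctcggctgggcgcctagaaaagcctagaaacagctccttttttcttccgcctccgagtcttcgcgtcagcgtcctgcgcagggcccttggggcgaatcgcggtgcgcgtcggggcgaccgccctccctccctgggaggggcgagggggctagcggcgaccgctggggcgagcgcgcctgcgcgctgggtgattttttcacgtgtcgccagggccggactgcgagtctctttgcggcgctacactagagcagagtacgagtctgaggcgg

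The longer element stood in 172 of 35116 windows of all genes (0.49%) and in 8 of 52 windows of the listed genes, those of CHORDC1, DNAJA1, DNAJB6, HSP90AA1, HSP90AB1, HSPA6, HSPA8 and HSPD1. Each longer element contains the pair, which was found in 6.77% of all windows and in 16 of the 52. HSPB1 had the pair alone, 174 bases before its start. In the windows printed, the single element of HSP90AA1 ended 75 bases before the transcript start, and the 2 of HSP90AB1 ended 152 and 99 bases before. The windows at the other starts of these genes held neither the element nor the pair. Of the HSPD1 windows, the one printed holds 2 overlapping elements in bases 6 to 23 from its 5′ end, and the HSPE1 window holds none. The printed HSPD1 window ends at chr2 base 197500090 and the HSPE1 window begins at 197500129. The 2 elements thus lie upstream of the bases searched for HSPE1. The other HSPD1 window and that of HSPE1 share 204 bases, chr2:197500225-197500428, read on opposite strands. A match is a description of the letters, and binding was not measured.

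Values below are normalized log2 intensities of the brightest probe of a gene, given in the order of replicates 1, 2 and 3, and groups are described as mean ± SD (n = 3). A gene was called higher or lower at a limma p under 0.001 together with a Benjamini-Hochberg adjusted p under 0.05 over all 19455 tested probes, and fold changes carry their standard error. On the arrays labelled Jurkat and GO, 9 of the 39 chaperone genes rose and 1 fell, where 15.9% of all genes were called higher and 11.1% lower. The median log2 fold change was 0.32 over the chaperone genes and 0.11 over all genes. On those labelled Jurkat and GONH2, 2 rose and none fell, against 0.395% and 0.368% of all genes, with medians of 0.03 and -0.02. In THP1 arrays labelled GO, none rose and 5 fell, against 4.36% and 4.73% of all genes, with medians of -0.22 and -0.02. In THP1 arrays labelled GONH2, 3 rose and 3 fell, against 12.4% and 9.51%, with medians of 0.06 and 0.08. With 39 genes these counts are small, their difference from the shares of all genes was not tested, and nothing is read from them about the chaperone genes as a group. The same holds for the counts by class of chaperone genes below, which stand against the same shares.

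The size of these medians rests on how arrays were put on one scale. When each array was scaled to its median in place of quantile normalization, the median of all genes in Jurkat with GO moved to -0.11. That of the chaperone genes moved to -0.14, so the positive sign of the chaperone median was lost. This scaling took the median over all probes. Of these, 23648 were detected on no array, so the median that set the scale lay near background. Median scaling named below without further words means this setting, and signs or calls lost under it carry that limit. Median scaling on the probes detected on all arrays gave 0.14 and 0.10, so under both scalings the chaperone median lay below that of all genes. The authors' normalized values gave 0.06 and 0.22 in Jurkat with GO, which kept the sign and the order. In THP1 labelled GO the medians over all genes and over the chaperone genes were -0.28 and -0.50 under median scaling on all probes. On detected probes they were 0.07 and -0.16. In THP1 labelled GONH2 they were -0.18 and -0.35 on all probes, and 0.15 and -0.02 on detected probes. Comparisons within a line share their control arrays, so they are set side by side and not counted against each other.

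**Figure D1:**
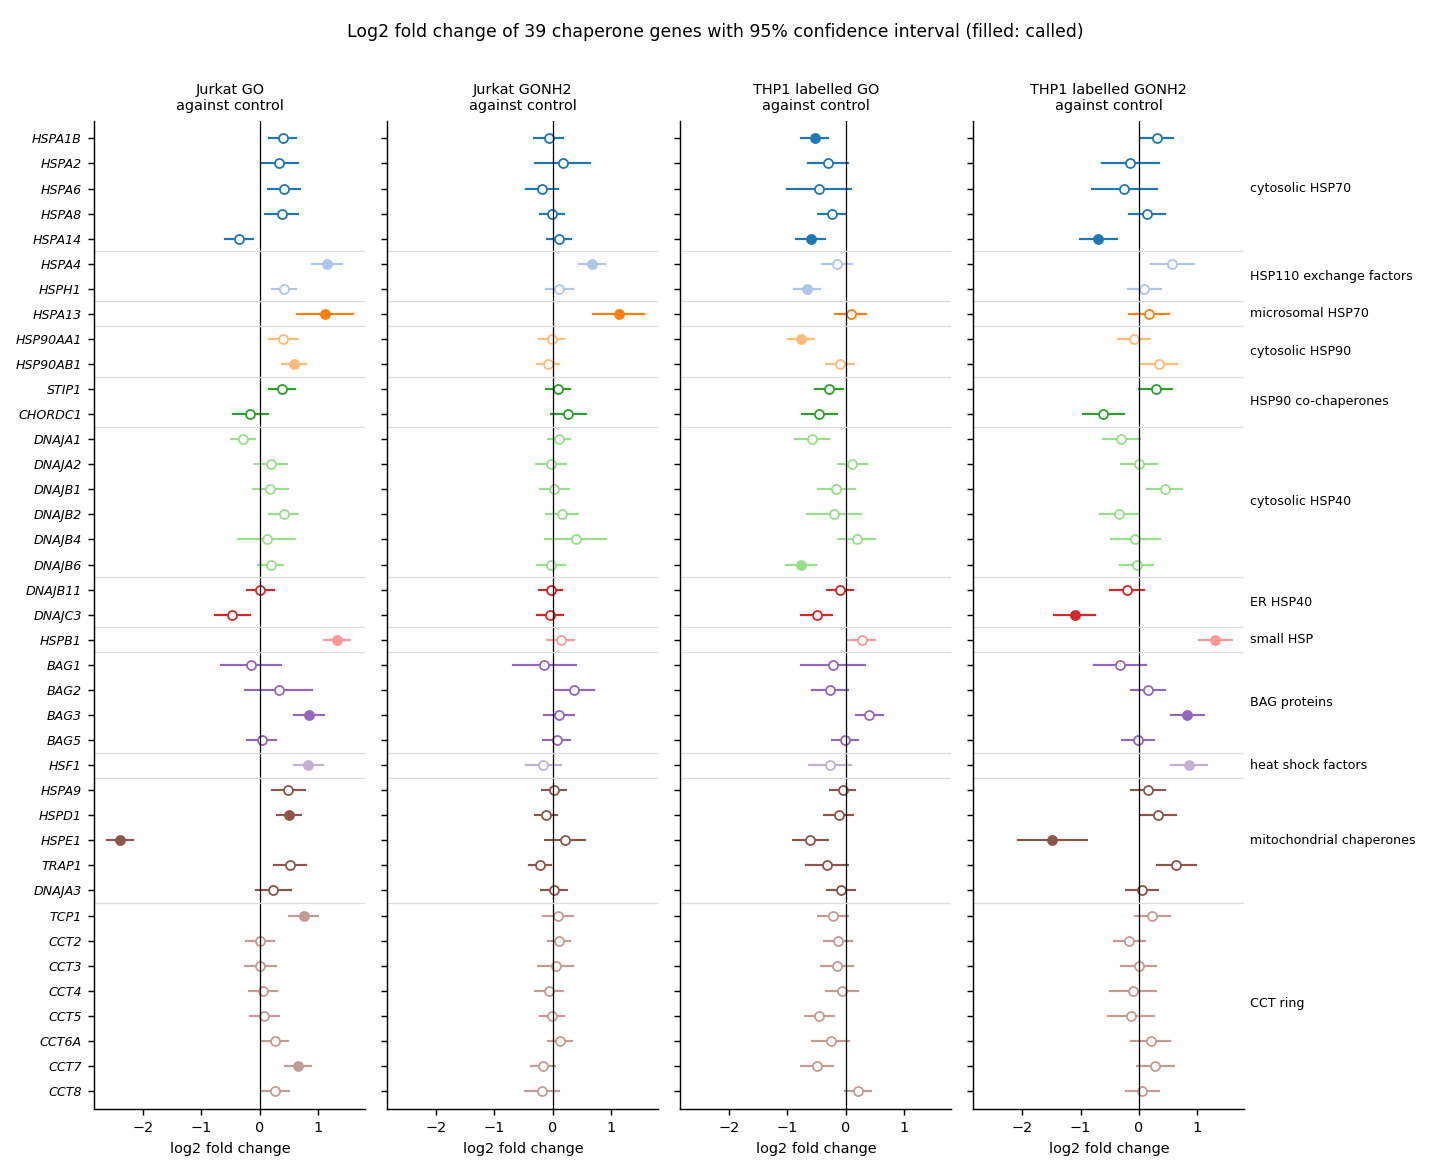
Log2 fold change against the control of the same line for 39 chaperone genes (rows, grouped by role) in 4 comparisons (panels), with 95% confidence intervals and filled symbols for called genes. HSPE1 lies far to the left in Jurkat with GO (-2.40) and in THP1 labelled GONH2 (-1.48), while HSPB1 lies to the right in both (1.32 and 1.31).

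No cytosolic HSP70 gene was called in Jurkat under either material, and 2 of the 5 tested fell in THP1 labelled GO. Of all genes, 15.9% were called higher and 11.1% lower in Jurkat with GO, and 0.395% and 0.368% with GONH2. In THP1 labelled GO 4.73% were called lower. HSPA8, the constitutive HSP70 (HSC70), stood at 13.22 ± 0.06 in Jurkat controls, 13.60 ± 0.19 with GO and 13.21 ± 0.08 with GONH2, and at 13.02 ± 0.06, 12.78 ± 0.10 and 13.16 ± 0.18 in THP1 control, labelled GO and labelled GONH2 arrays. None of these differences from control was called, and the one in Jurkat with GO was 0.38 ± 0.12 (limma adjusted p = 0.034). HSPA1B, a stress-inducible HSP70 gene with a near-identical neighbour in HSPA1A, read 9.46, 9.63 and 9.50 in Jurkat controls and 10.00, 9.92 and 9.84 with GO. The 2 groups did not overlap, and the difference of 0.39 ± 0.10 missed the p threshold (adjusted p = 0.014). With GONH2 its Jurkat values were 9.36, 9.61 and 9.40, which overlapped the controls.

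In THP1, HSPA1B read 9.88, 9.86 and 9.72 in controls, 9.28, 9.28 and 9.29 on arrays labelled GO and 10.00, 10.18 and 10.18 on arrays labelled GONH2. It fell on the arrays labelled GO (-0.53 ± 0.10, adjusted p = 0.010) and was 0.30 ± 0.13 above control on those labelled GONH2, which was not called. HSPA1A stayed below detection in every group, with means between 4.37 and 4.68. HSPA6, which is strictly heat-inducible, was near the detection floor, at 6.09 ± 0.18 in Jurkat controls and 6.51 ± 0.06 with GO, and in THP1 it was detected on 2 control arrays and 1 array of each treated group. HSPA2, an HSP70 known from the testis, was low throughout, with group means from 5.17 to 5.57. HSPA14, a ribosome-bound HSP70, fell in both treated THP1 groups, by -0.60 ± 0.11 (adjusted p = 0.0095) in labelled GO and by -0.69 ± 0.14 (adjusted p = 0.0040) in labelled GONH2. In Jurkat with GO it stood at -0.36 ± 0.10 and was not called. Without any 1 of the 6 arrays HSPA1B lost its call in THP1 labelled GO (log2 fold changes of -0.59 to -0.50), as did HSPA14 in THP1 labelled GONH2 (-0.76 to -0.61), and HSPA14 in labelled GO kept it only without control replicate 2 (-0.67 to -0.53).

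The HSP110 proteins release nucleotide from HSP70. HSPA4 rose with both materials in Jurkat. It read 8.34, 8.52 and 8.56 in controls, 9.48, 9.71 and 9.69 with GO and 9.20, 9.11 and 9.15 with GONH2, 3 groups without overlap. The rise was 1.15 ± 0.11 with GO (adjusted p = 0.00016) and 0.68 ± 0.10 with GONH2 (adjusted p = 0.038). The THP1 values of HSPA4 were 8.47, 8.40 and 8.36 in controls, 8.27, 8.11 and 8.41 in labelled GO and 8.67, 9.02 and 9.27 in labelled GONH2, where the difference of 0.57 ± 0.17 was not called. A second HSPA4 probe read 0.21 ± 0.12 in Jurkat with GO and 0.17 ± 0.14 with GONH2 (adjusted p = 0.54), neither called, so both rises were those of 1 probe. The mean of both probes kept the call with GO (0.68) and lost it with GONH2 (0.43, adjusted p = 0.11). HSPH1, the heat-inducible HSP110, read 11.50, 11.48 and 11.47 in Jurkat controls and 11.85, 11.90 and 11.95 with GO, a difference of 0.42 ± 0.09 that missed the p threshold (adjusted p = 0.0061). In THP1 it fell from 11.78, 11.83 and 11.75 to 11.16, 11.11 and 11.09 on arrays labelled GO (-0.67 ± 0.09, adjusted p = 0.0042), with 11.83, 12.00 and 11.82 on those labelled GONH2.

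HSPA13, an HSP70 of the microsomes, was the other member to rise with both materials in Jurkat. Its values were 5.74, 6.38 and 6.24 in controls, 6.91, 7.26 and 7.53 with GO and 7.39, 7.36 and 6.99 with GONH2. Both treated groups lay above every control, by 1.12 ± 0.21 (adjusted p = 0.0033) and 1.13 ± 0.19 (adjusted p = 0.0495). In THP1 its means were 6.69, 6.77 and 6.86 in control, labelled GO and labelled GONH2 arrays, and it was not called. A second probe of HSPA13 read -0.62 ± 0.18 in Jurkat with GO and 0.01 ± 0.12 with GONH2, so the rise was that of 1 probe. The 2 calls with GONH2 in Jurkat both ended without any 1 of the 6 arrays, with log2 fold changes of 0.61 to 0.72 for HSPA4 and 0.94 to 1.26 for HSPA13. With GO, the call of HSPA13 ended without control replicate 1 or 3 or GO replicate 2 or 3 (0.93 to 1.28).

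Cytosolic HSP90 had 1 gene that rose in Jurkat with GO, with a sign that turned under median scaling, and 1 that fell in THP1 labelled GO. HSP90AA1, the inducible form, read 13.68, 13.56 and 13.78 in Jurkat controls, 14.19, 13.98 and 14.06 with GO and 13.65, 13.67 and 13.66 with GONH2. The GO arrays lay above the controls by 0.40 ± 0.11, not called (adjusted p = 0.016). The THP1 controls of HSP90AA1 read 13.80, 13.68 and 13.73 and the arrays labelled GO 12.92, 12.99 and 12.98, a fall of -0.77 ± 0.10 (adjusted p = 0.0027). On arrays labelled GONH2 it was 13.60, 13.76 and 13.60, which overlapped the controls. A second probe also fell in labelled GO, by -0.96. HSP90AB1, the constitutive form, rose in Jurkat with GO from 12.68 ± 0.02 to 13.27 ± 0.04 (0.59 ± 0.09, adjusted p = 0.0012) and was 12.60 ± 0.03 with GONH2. In THP1 its means were 12.72, 12.62 and 13.07 in control, labelled GO and labelled GONH2 arrays, with no call. The Jurkat rise lost its call without any 1 of the 3 controls (0.56 to 0.60), and under median scaling HSP90AB1 read -0.14. Median scaling on detected probes ended the call as well.

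Of the HSP90 co-chaperones, STIP1, which hands clients from HSP70 to HSP90, stood at 0.38 ± 0.10 in Jurkat with GO and at -0.29 ± 0.10 and 0.29 ± 0.12 in THP1 labelled GO and labelled GONH2. CHORDC1, an HSP90-binding protein, stood at -0.46 ± 0.13 and -0.61 ± 0.16 in the 2 treated THP1 groups. None of these was called. On the control arrays CHORDC1 was lower in Jurkat than in THP1, 7.57 ± 0.21 against 8.41 ± 0.21 (-0.85 ± 0.15, adjusted p = 0.0064). Only 3 members differed between the controls of the lines, all lower in Jurkat, where 7.15% of all genes were higher and 6.06% lower. The others were the J-domain genes DNAJA1 (-0.63 ± 0.10, adjusted p = 0.0032) and DNAJC3 (-0.81 ± 0.09, adjusted p = 0.00094). DNAJC3 alone kept its call whichever array was left out. CHORDC1 lost it without any 1 array other than Jurkat replicate 3, and DNAJA1 without THP1 replicate 2 or any 1 Jurkat array, which left 1 or 2 calls.

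The J-domain genes of the cytosol held 1 call in the 4 comparisons, in THP1 labelled GO. DNAJB1, the classical heat-induced HSP40, read 8.94, 8.85 and 8.68 in Jurkat controls, 8.80, 9.16 and 9.04 with GO and 8.99, 8.77 and 8.79 with GONH2, 3 overlapping groups. DNAJB1 in THP1 read 9.08, 9.20 and 9.31 in controls, 9.27, 8.99 and 8.85 in labelled GO and 9.50, 9.75 and 9.68 in labelled GONH2. The last group lay above all controls, by 0.44 ± 0.13, and was not called (adjusted p = 0.025). DNAJB6, which suppresses aggregation of polyglutamine proteins, fell in THP1 labelled GO from 8.14 ± 0.05 to 7.37 ± 0.15 (-0.77 ± 0.11, adjusted p = 0.0047). Its second probe read 0.27 in the same arrays, and the mean of both probes was not called (-0.25). DNAJA1 stood at -0.58 ± 0.13 in THP1 labelled GO and -0.28 ± 0.09 in Jurkat with GO, neither called. DNAJA2, DNAJB2 and DNAJB4 lay between -0.33 and 0.41 in the 4 comparisons, with no call.

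DNAJC3 (P58IPK), a J-domain protein of the endoplasmic reticulum, fell in THP1 labelled GONH2. It read 7.12, 7.18 and 7.02 in THP1 controls, 6.63, 6.45 and 6.74 in labelled GO and 5.94, 5.78 and 6.30 in labelled GONH2, groups that did not overlap. The fall was -1.10 ± 0.16 (adjusted p = 0.00081), and the difference of -0.50 ± 0.11 in labelled GO was not called. In Jurkat it read 6.24, 6.31 and 6.34 in controls, 5.86, 6.04 and 5.59 with GO and 6.32, 6.30 and 6.10 with GONH2, and the difference of -0.47 ± 0.13 with GO was not called. DNAJB11, its partner in the same compartment, lay between -0.20 and 0.01 in the 4 comparisons.

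HSPB1 (HSP27), a small heat shock protein that holds unfolded proteins and stabilizes actin filaments, had the highest rise of all members in both lines. It read 12.82, 12.96 and 12.99 in Jurkat controls, 14.28, 14.21 and 14.24 with GO and 12.94, 13.10 and 13.14 with GONH2. With GO it rose by 1.32 ± 0.10 (2.50-fold, adjusted p = 4.2e-05), and the GONH2 arrays overlapped the controls (0.14 ± 0.10). HSPB1 in THP1 read 12.85, 12.68 and 12.74 in controls, 13.02, 13.02 and 13.05 in labelled GO and 13.97, 14.15 and 14.09 in labelled GONH2. The rise in labelled GONH2 was 1.31 ± 0.13 (adjusted p = 0.00026), and labelled GO lay 0.27 ± 0.10 above control without a call. Under median scaling both rises kept their sign and lost their calls (0.63 and 0.77). Under median scaling on detected probes both rises kept their calls.

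BAG3, a stress-induced exchange factor that works with HSPB proteins in autophagy, moved beside HSPB1. It read 8.69, 8.84 and 8.89 in Jurkat controls and 9.62, 9.79 and 9.54 with GO, a rise of 0.84 ± 0.11 (adjusted p = 0.00059), and 9.01, 8.99 and 8.73 with GONH2. The THP1 values of BAG3 were 8.35, 8.43 and 8.34 in controls, 8.82, 8.80 and 8.71 in labelled GO and 9.28, 9.26 and 9.09 in labelled GONH2. The labelled GONH2 arrays lay highest (0.84 ± 0.12, adjusted p = 0.00098), and labelled GO, also above every control, was not called (0.41 ± 0.10). BAG1, BAG2 and BAG5 lay between -0.33 and 0.37, with no call. HSF1, the master regulator of the heat shock response, read 6.75, 6.94 and 6.71 in Jurkat controls, 7.72, 7.63 and 7.54 with GO and 6.43, 6.84 and 6.64 with GONH2. It rose with GO by 0.83 ± 0.11 (adjusted p = 0.00056). In THP1 its values were 6.89, 6.76 and 6.74 in controls, 6.41, 6.85 and 6.31 in labelled GO and 7.58, 7.54 and 7.85 in labelled GONH2, a rise of 0.86 ± 0.14 in the last (adjusted p = 0.0013). These are levels of HSF1 mRNA, and the activity of the factor was not measured. The calls of BAG3 and HSF1 ended under median scaling, at 0.55 and 0.61 in Jurkat with GO and 0.50 and 0.58 in THP1 labelled GONH2. They were kept under median scaling on detected probes.

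**Figure D2:**
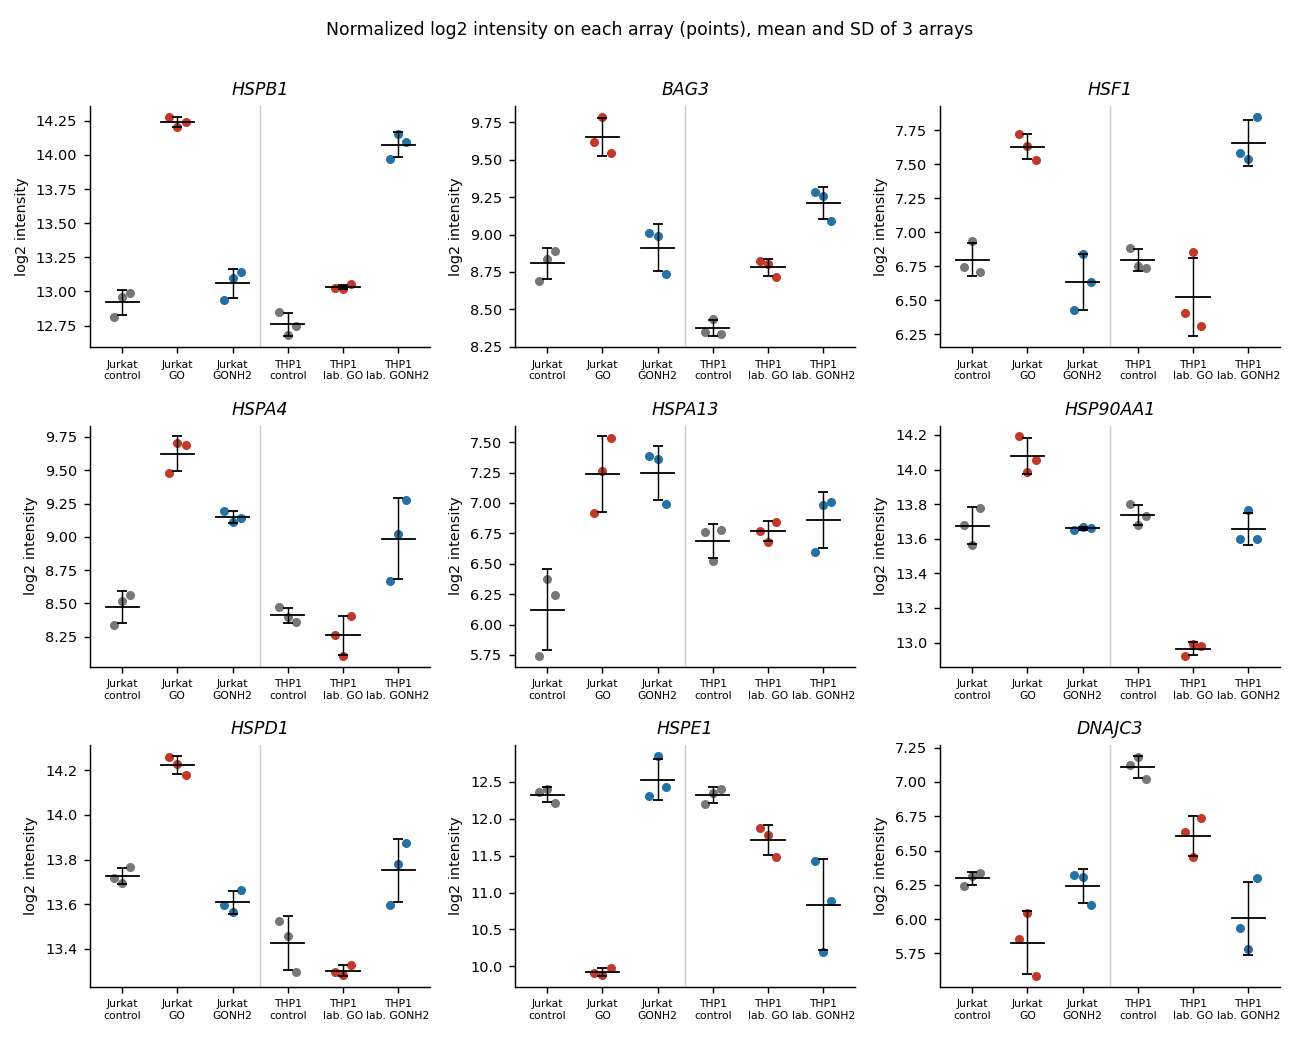
Normalized log2 intensity of 9 chaperone genes on each of the 18 arrays (points), with the mean and SD of the 3 arrays of each group (bars). HSPB1, BAG3 and HSF1 are highest in Jurkat with GO and THP1 labelled GONH2, where HSPE1 is lowest, and HSP90AA1 is low in THP1 labelled GO alone.

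In the mitochondria, HSPE1 (HSP10), the cap of the HSP60 chamber, had the largest change of all members. It read 12.36, 12.40 and 12.21 in Jurkat controls, 9.92, 9.88 and 9.98 with GO and 12.31, 12.84 and 12.43 with GONH2. With GO every array lay more than 2 log2 units below every control, a fall of -2.40 ± 0.10 or 5.27-fold (adjusted p = 7.9e-06), and the GONH2 arrays overlapped the controls. In THP1 it read 12.20, 12.35 and 12.41 in controls, 11.87, 11.78 and 11.48 in labelled GO and 11.43, 10.20 and 10.89 in labelled GONH2. Both treated groups lay below the controls, by -0.61 ± 0.13 (not called, adjusted p = 0.018) and -1.48 ± 0.26 (adjusted p = 0.0022). The spread in labelled GONH2 was wide (SD 0.62), and its call ended without any 1 of the 3 controls or without replicate 3 of the treated group (-1.77 to -1.16). A second HSPE1 probe fell as well in Jurkat with GO, by -2.06, and read -1.87 in THP1 labelled GONH2.

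HSPD1 (HSP60), whose gene shares the promoter region with HSPE1, did not follow it. Its brightest probe read 13.72, 13.70 and 13.77 in Jurkat controls and 14.26, 14.23 and 14.18 with GO, a rise of 0.50 ± 0.09 (adjusted p = 0.0028), and 13.60, 13.56 and 13.66 with GONH2. In THP1 it read 13.53, 13.46 and 13.29 in controls, 13.30, 13.28 and 13.33 in labelled GO and 13.60, 13.78 and 13.88 in labelled GONH2, with no call. The rise in Jurkat lost its call without any 1 of the 6 arrays (0.48 to 0.52). It was -0.17 under median scaling and 0.02 in the mean of its 3 probes. Median scaling on detected probes ended the call as well. The second probe read 0.32 ± 0.11, and the other one fell in Jurkat with GO (-0.74 ± 0.14, adjusted p = 0.0035) and in THP1 labelled GONH2 (-0.85, adjusted p = 0.0034). HSPD1 had no settled direction over its probes, while both HSPE1 probes pointed down.

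The other mitochondrial chaperones were not called against control. HSPA9 (mortalin), the HSP70 of the import motor, rested at 12.53 ± 0.10 in Jurkat controls and 13.02 ± 0.19 with GO (0.49 ± 0.12, adjusted p = 0.013). TRAP1, the mitochondrial HSP90, stood at 0.52 ± 0.12 in Jurkat with GO and 0.64 ± 0.15 in THP1 labelled GONH2 (adjusted p = 0.0081 and 0.0075). DNAJA3, the mitochondrial J-domain partner of HSPA9, lay between -0.08 and 0.24. The mean over the 5 mitochondrial chaperones lay below the control mean on every Jurkat GO array, between -0.21 and -0.03, and between 0.33 and 0.57 above it when HSPE1 was left out.

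**Figure D3:**
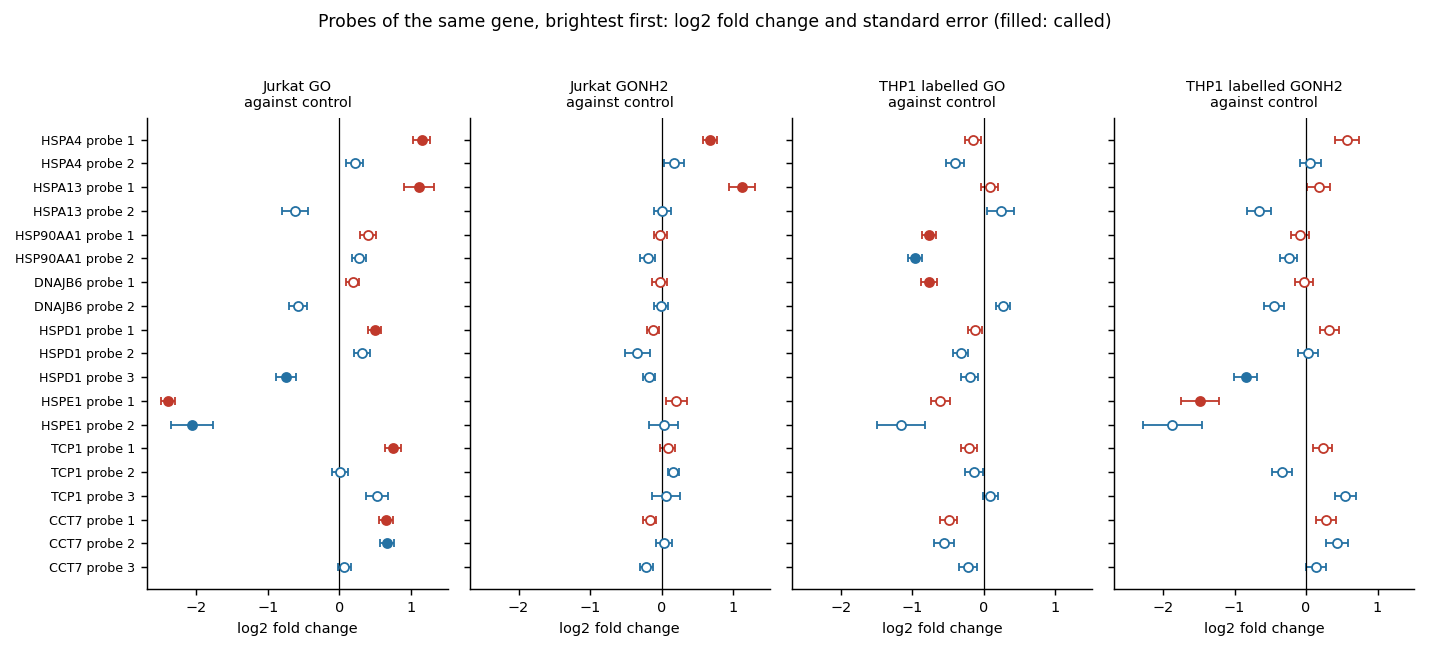
Log2 fold change and standard error of every tested probe of 8 chaperone genes, brightest probe first (red), in 4 comparisons, with filled symbols for called probes. Both HSPE1 probes lie on the left in Jurkat with GO (-2.40 and -2.06), while the HSPD1 probes spread from 0.50 to -0.74.

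In the CCT ring, the cytosolic chaperonin, 2 of the 8 subunits were called in the 4 comparisons, both in Jurkat with GO. There 15.9% of all genes were called higher, and nothing is read from the count about the ring. With GO in Jurkat, TCP1 rose from 11.33 ± 0.07 to 12.08 ± 0.13 (0.75 ± 0.11, adjusted p = 0.00092) and CCT7 from 12.69 ± 0.07 to 13.35 ± 0.09 (0.66 ± 0.10, adjusted p = 0.0011). The other 6, CCT2, CCT3, CCT4, CCT5, CCT6A and CCT8, lay between 0.00 and 0.26. With GONH2 in Jurkat all 8 lay between -0.18 and 0.12, in THP1 labelled GO between -0.49 and 0.21 and in labelled GONH2 between -0.16 and 0.28, with no call. CCT7 had the lowest of these values, -0.49 ± 0.12 in THP1 labelled GO (adjusted p = 0.024). CCT5 was next, at 7.64 ± 0.12 in THP1 controls and 7.18 ± 0.08 in labelled GO, groups that did not overlap (-0.46 ± 0.11, adjusted p = 0.023). A second CCT7 probe rose likewise in Jurkat with GO (0.66) and the other read 0.07. The TCP1 probes read 0.75, 0.53 and 0.01. CCT7 lost its call without Jurkat control replicate 2 or 3 (0.62 to 0.70 over the 6 arrays left out), and under median scaling TCP1 and CCT7 stood at 0.22 and -0.079. Both calls also ended in the mean of probes and under median scaling on detected probes.

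**Figure D4:**
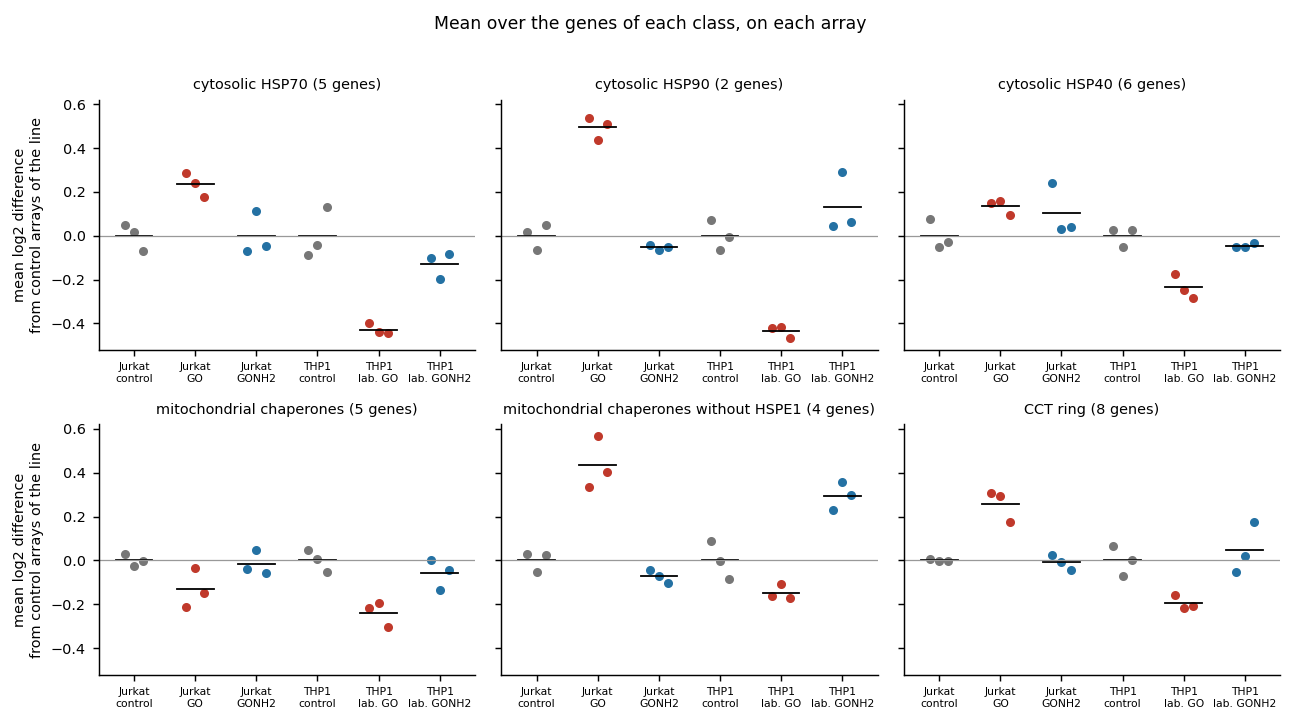
Mean over the genes of each class on each array (points), as the log2 difference from the mean control array of the same line, with the mean of 3 arrays (bars). Cytosolic HSP70 and HSP90 lie above control in Jurkat with GO (up to 0.28 and 0.54) and below it in THP1 labelled GO (down to -0.44 and -0.47), and under median scaling the HSP90 median in Jurkat with GO was -0.23.

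Class means were set side by side on each array for cytosolic HSP70, HSP90 and HSP40 and the CCT ring. The 2 HSP90 genes averaged 0.44 to 0.54 above the control mean on the 3 Jurkat GO arrays and -0.47 to -0.42 on the 3 THP1 arrays labelled GO. The 5 cytosolic HSP70 genes averaged 0.18 to 0.28 and -0.44 to -0.40 in the same groups. The 6 cytosolic HSP40 genes ran from 0.09 to 0.16 and from -0.29 to -0.17, and the CCT ring from 0.18 to 0.31 and from -0.22 to -0.16. The median log2 fold change of all genes was 0.11 in Jurkat with GO and -0.02 in THP1 labelled GO. The HSP70 mean includes HSPA2 and HSPA6, and the HSP40 mean DNAJB4, which lay near background. With GONH2 in Jurkat the HSP90 mean ran from -0.07 to -0.04, that of HSP70 from -0.07 to 0.11 and that of the CCT ring from -0.04 to 0.02. The HSP40 mean ran from 0.03 to 0.24 there, which overlapped its values with GO. Under median scaling the median fold changes of HSP90, HSP40 and the CCT ring in Jurkat with GO turned negative (-0.23, -0.080 and -0.17), and that of HSP70 was 0.08. The HSP70, HSP90 and HSP40 medians in THP1 labelled GO stayed negative (-0.61, -0.74 and -0.47).

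Prefoldin, the hexamer that delivers actin and tubulin chains to the CCT ring, was read as a neighbouring list of 6 subunits. In Jurkat with GO, 3 of the 6 fell and none rose, where 11.1% of all genes were called lower, led by PFDN5 (-2.30 ± 0.13, adjusted p = 1.8e-05), PFDN6 (-1.64 ± 0.12) and PFDN1 (-1.14 ± 0.10). In THP1 labelled GONH2, 4 of 6 fell, where 9.51% of all genes were called lower, with PFDN5 at -1.59 ± 0.24 (adjusted p = 0.0011), PFDN6 at -1.12 ± 0.14 and VBP1 at -0.91 ± 0.13. All 6 were below control in both, with medians of -0.83 and -0.91. In Jurkat with GONH2 and THP1 labelled GO none was called, where 0.368% and 4.73% of all genes were called lower, and the medians were -0.05 and 0.02. Among 4 cofactors of the ring, PDCL3, a phosducin-like protein, fell in Jurkat with GO (-0.71 ± 0.10), and TXNDC9 and the testis subunit CCT6B fell in THP1 labelled GONH2 (-0.71 ± 0.15 and -0.91 ± 0.18).

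**Figure D5:**
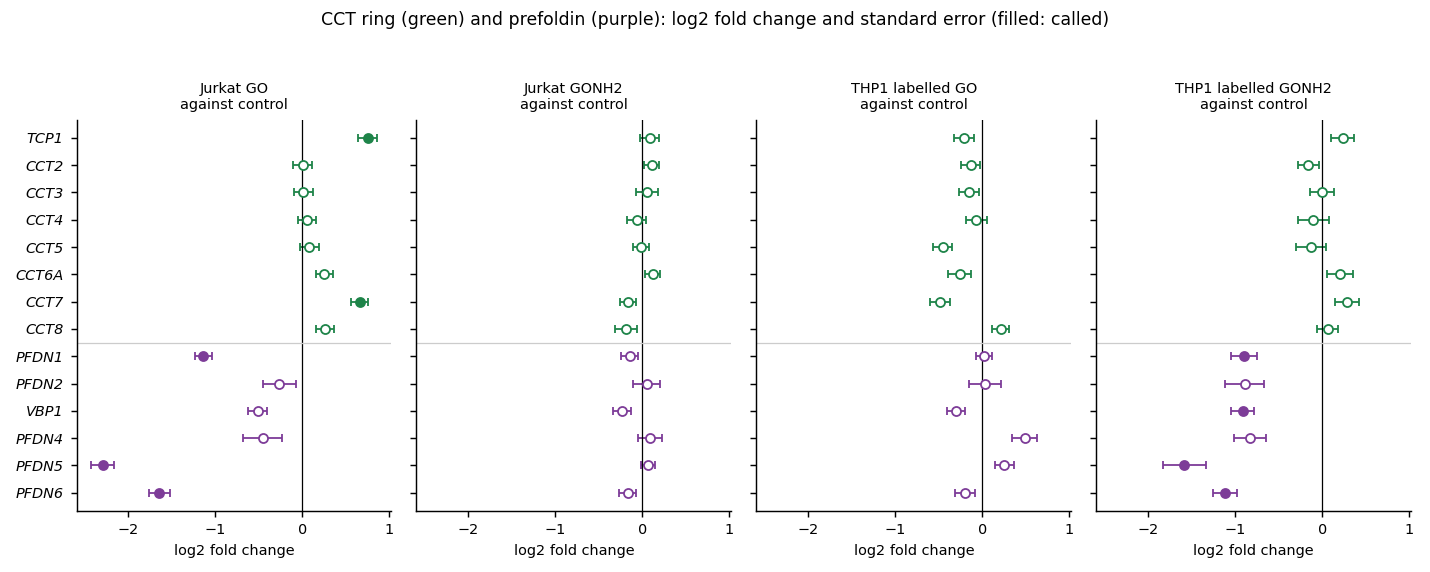
Log2 fold change and standard error of the 8 CCT subunits (green) and the 6 prefoldin subunits (purple) in 4 comparisons, with filled symbols for called genes. In Jurkat with GO the CCT subunits run from 0.00 to 0.75 and the prefoldin subunits from -2.30 to -0.26.

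Partners of HSP70 and HSP90 outside the list, 18 of 20 tested, rose in 3 cases and fell in none in Jurkat with GO, and in 4 and none in THP1 labelled GONH2. With 15.9% and 12.4% of all genes called higher there, these counts are near the background and say nothing particular to the partners. BAG6, a holdase for misplaced membrane proteins, had the highest rise in both (1.34 ± 0.13 and 1.15 ± 0.14). UNC45A, a myosin chaperone, rose in both (0.78 ± 0.10 and 0.81 ± 0.13), PTGES3 (p23) in Jurkat (0.98 ± 0.13) and the immunophilins FKBP8 and FKBP4 in THP1 labelled GONH2 (0.78 ± 0.15 and 0.70 ± 0.15). In THP1 labelled GO 1 of the 18 fell, DNAJC5, the J-domain protein of vesicles (-0.77 ± 0.10).

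In the lists that follow, the shares of all genes called higher and lower were 15.9% and 11.1% in Jurkat with GO, 12.4% and 9.51% in THP1 labelled GONH2, and 4.36% and 4.73% in THP1 labelled GO, and nothing is read from the counts about the lists as groups. Of 11 mitochondrial partners and proteases, 2 rose and 2 fell in Jurkat with GO. HSCB, an iron-sulphur J-domain protein, stood at 0.77 ± 0.09, the protease LONP1 at 0.63 ± 0.10, and the unfoldase CLPX at -0.68 ± 0.09 and import factor PAM16 at -0.63 ± 0.10. In THP1 labelled GONH2 GRPEL2, an exchange factor of HSPA9, fell by -1.02 ± 0.12 and CLPX by -0.74 ± 0.13, while the protease CLPP rose by 0.75 ± 0.12. Of 10 chaperones of the endoplasmic reticulum, HSPA5 (BiP) rose in both groups, by 1.15 ± 0.11 and 0.76 ± 0.12, and CANX in Jurkat with GO (0.64 ± 0.11). In THP1 labelled GO HYOU1 fell (-1.06 ± 0.15) and DNAJB9 rose (0.72 ± 0.12). Of 7 further heat-inducible genes tested out of 10, DEDD2 rose in Jurkat with GO (0.70 ± 0.11) and THP1 labelled GONH2 (0.63 ± 0.13), and CACYBP fell in the first (-0.71 ± 0.09). With GONH2 in Jurkat no gene of these neighbouring lists was called, where 0.395% of all genes were called higher and 0.368% lower.

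GONH2 carries amino groups that GO lacks, and the study also describes its sheets as thicker, so the direct comparison at the same dose and time does not isolate the amino groups. On the Jurkat arrays it called 1 member higher and 9 lower with GONH2, against 10.1% and 15.7% of all genes. HSPE1 was 2.60 ± 0.15 higher with GONH2 (adjusted p = 1.0e-05). HSPB1 (-1.18 ± 0.11), HSF1 (-0.995 ± 0.13), CCT7 (-0.83 ± 0.11), BAG3 (-0.74 ± 0.13) and TRAP1 (-0.74 ± 0.12) were lower, as were HSP90AB1 (-0.68), TCP1 (-0.67), HSPD1 (-0.61) and HSPA6 (-0.61). HSPA13 did not differ beyond error, at 0.01 ± 0.18, with a 95% interval from -0.41 to 0.43. The call of HSPA6 ended without any 1 array (-0.66 to -0.57). Those of HSPD1 (-0.64 to -0.59) and TRAP1 (-0.83 to -0.65) ended without any but GO replicate 3, that of TCP1 (-0.76 to -0.59) without any but GONH2 replicate 3, and that of BAG3 (-0.79 to -0.65) without GO replicate 1 or 2 or GONH2 replicate 2 or 3. Under median scaling HSPE1 alone stayed called. Median scaling on detected probes ended the calls of CCT7, HSP90AB1, HSPD1 and TCP1, and the mean of probes those of HSPD1 and TCP1. The call of HSPA6 also ended with the authors' normalized values, without background correction and with all 18 arrays in 1 fit.

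In THP1, 9 members were higher on arrays labelled GONH2 than on those labelled GO and none was lower, against 17.9% and 12.2% of all genes. HSF1 (1.13 ± 0.17), HSPB1 (1.04 ± 0.11) and TRAP1 (0.97 ± 0.13) led, followed by HSPA1B (0.84), CCT7 (0.77), HSPH1 (0.76), DNAJB6 (0.73), HSP90AA1 (0.69) and STIP1 (0.58). HSPE1 was -0.87 ± 0.28 lower and not called (adjusted p = 0.027). The second DNAJB6 probe was called in the opposite direction (-0.71), and the mean of its probes read 0.01. Under median scaling CCT7 (0.59), HSP90AA1 (0.44) and STIP1 (0.56) lost their calls, and HSP90AA1 also under scaling on detected probes (0.42). STIP1 lost its call without any 1 array (0.54 to 0.62), HSP90AA1 without any array labelled GO (0.64 to 0.72), and DNAJB6 without labelled GO replicate 2 or 3 or labelled GONH2 replicate 1 or 3 (0.65 to 0.79).

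The responses of the lines were then compared by an interaction term. As labelled, the GO response differed in 13 members, 12 higher in Jurkat and 1 lower, against 15.4% and 11.1% of all genes. The largest differences were those of HSPE1 (-1.79 ± 0.16), HSPA4 (1.30 ± 0.16) and HSP90AA1 (1.17 ± 0.13). The GONH2 response differed in 7, with 3 higher and 4 lower, against 8.35% and 12.5%. These counts rest on the THP1 labels. When the Jurkat GO response was set against that of THP1 labelled GONH2, none of the 39 members was called, where 0.62% of all genes were called. An unadjusted limma p under 0.05 was reached by 11 members. The share of all genes at this looser threshold was not counted, so nothing is read from the 11. The median difference was 0.18 over the members and 0.02 over all genes. Among those with an unadjusted p under 0.05, HSPA13 differed by 0.94 ± 0.27 (interval 0.35 to 1.53), DNAJB2 by 0.74 ± 0.18, DNAJC3 by 0.63 ± 0.21, HSPA4 by 0.58 ± 0.20 and TCP1 by 0.52 ± 0.16, all higher in Jurkat. HSPB1, BAG3 and HSF1, called higher in both comparisons with control, differed by 0.01 ± 0.14, 0.01 ± 0.15 and -0.03 ± 0.17, with 95% intervals of -0.30 to 0.32, -0.32 to 0.34 and -0.39 to 0.33. HSPE1 differed by -0.92 ± 0.32 (interval -1.60 to -0.23) and was not called (adjusted p = 0.19). When the Jurkat GONH2 response was set against that of THP1 labelled GO, 7 members were higher in Jurkat, HSPA14, HSPA4, HSPH1, HSPA13, HSP90AA1, DNAJA1 and DNAJB6 (0.69 to 1.05), against 2.96% of all genes. All these differences are those of the brightest probe of a gene. A further probe of HSPA4, HSPA13, TCP1 and DNAJB6 departed from it within a line, as given above, so their differences rest on that probe alone.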

How the data were processed

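Transcript levels came from 18 BeadChip arrays (HumanHT-12 v4, Illumina). The authors hybridized biotinylated cRNA and deposited 2 tables made with version V1.9.0 of the expression module of GenomeStudio V2011.1, one with probe intensities not normalized between arrays, and one with intensities they had normalized in a way the sources do not name. The detection p-value of each probe, deposited by the authors beside the raw intensities, compares it with negative controls. Probes were named from the platform annotation, updated by gene ID to RefSeq (30067 of 30106 probes with 1 symbol).

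Raw intensities were background-corrected with the detection p-values (limma 3.58.1 neqc, R 4.3.3, offset 16), quantile normalized over 18 arrays and put on the log2 scale. The filter required detection (p under 0.01) on 3 or more arrays and left 19455 of 47217 probes, and each gene was represented by its brightest probe. Fits used only the arrays compared. Precision is limited by 3 arrays per group, and where replicates are not separate cultures the p-values cover technical spread only. Replicate numbers shared by groups were not shown to pair the arrays (correlations of deviations from -0.07 to 0.16). Arrays of unlike number were not correlated for comparison, so pairing is not excluded.

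The members, lists and tests were chosen with earlier results of these data known. Every member could be named, with per-array values for those called at an absolute log2 fold change of at least 1, the heat-inducible members and HSF1; a few further members and neighbouring genes were given in the same way after their values had been seen. The study's supplementary tables served only to check labels. The alternatives were other normalizations, filters, fits, thresholds and probe rules, exchanged THP1 labels, and the omission of single arrays. Median scaling on probes detected on all arrays was added after seeing the data. The calling was tested on simulated data.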

Additional observations from a re-analysis of the deposited data

Results flagged for a closer look

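Members whose response to a treatment differed between the lines by the interaction test are given here, as log2 differences of Jurkat minus THP1 under the deposited labels. For the GO response these were HSPA1B (0.92), HSPA4 (1.30), HSPH1 (1.08), HSPB1 (1.05), HSPD1 (0.62), HSP90AA1 (1.17), HSP90AB1 (0.69), STIP1 (0.68), DNAJB6 (0.96), HSF1 (1.10), TCP1 (0.96) and CCT7 (1.15), all higher in Jurkat, and HSPE1 (-1.79), lower. For the GONH2 response HSPA14 (0.80), HSPE1 (1.69) and DNAJC3 (1.05) were higher in Jurkat and HSPB1 (-1.18), TRAP1 (-0.86), BAG3 (-0.73) and HSF1 (-1.03) lower. All are values of the brightest probe, from which a further probe of HSPA4, HSPD1, DNAJB6, TCP1 and CCT7 departed within a line. The study's own listed means place THP1 GO on the arrays labelled GONH2, and the part of the labels in these differences was not tested beyond the exchange described with the interaction values. Groups of 3 arrays were too small for a test of single outlying arrays.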

How the results depend on the processing

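The counts of called members against control were 10 in Jurkat with GO, 2 in Jurkat with GONH2, 5 in THP1 labelled GO and 6 in THP1 labelled GONH2, those of GONH2 against GO were 10 in Jurkat and 9 in THP1, those of the GO and GONH2 interactions 13 and 7, and that between the controls 3. Of 167 alternatives of these counts, 108 stayed within 1.5 times, and of 713 alternatives of single members 568 kept the call, 142 lost it and 3 reversed. With adjusted p alone the 9 counts were 22, 2, 12, 10, 20, 20, 22, 12 and 9 in that order. Scaling to the median of all probes, which lay near background, gave 3, 1 and 9 in the first 3 comparisons. It gave 1 in Jurkat GONH2 against GO and 3 in the GO interaction. In Jurkat with GO it reversed HSPD1 (-0.17), HSP90AB1 (-0.14) and CCT7 (-0.079). Median scaling on detected probes gave 1 in Jurkat with GONH2 and 7 in the GO interaction. The authors' normalized values and the omission of background correction each gave 18 in Jurkat with GO, 17 and 16 in the direct comparisons and 7 between the controls, with 10 and 9 in THP1 labelled GO. An offset of 50 gave 8 in THP1 labelled GO and 5 between the controls, and detection on all 18 arrays 8 and 6. No filter left 0 in Jurkat with GONH2. All 18 arrays in 1 fit gave 16 in Jurkat with GO, 18 in the THP1 direct comparison and 5 between the controls. The mean of probes gave 6 and 0 in Jurkat with GO and GONH2 and 5 between the controls. With the THP1 labels exchanged the GO interaction called 0. Arrays of the same number were not shown to pair, and the replicate block gave 8, 0, 3, 5, 7, 8, 13, 7 and 1.

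Leaving out 1 array at a time gave 6 to 9, 0 (every array), 3 to 4, 4 to 5, 5 to 8, 6 to 9, 12 to 16, 6 to 8 and 1 to 2 calls in the same order. HSPA4 and HSPE1 in Jurkat with GO kept their calls in the 11 other alternatives and in every omission of 1 array. The cause of these shifts was not tested. Signals near background, as for BAG1, DNAJB4, HSPA2 and HSPA6, limit what 3 arrays per group can show.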
